A study of Mus musculus with 15 samples.

Results

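Sox genes encode transcription factors that bind DNA through an HMG box, a domain shared with the testis-determining factor Sry. The 10 described here (Sox2, Sox4, Sox5, Sox7, Sox8, Sox9, Sox11, Sox13, Sox17, and Sox18) were taken by gene name from the array annotation, out of 27962 distinct gene names on the array. They were measured by 24 probes, and every probe is reported, because the probes of a gene did not always move alike. Sox2 was the 1 gene whose probe was not well above background on any of the 15 arrays, so 23 probes of 9 genes were tested.

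An HMG box bends DNA, and a Sox factor usually acts with a partner protein on a nearby site, so 1 factor can serve different genes in different cells. The family is divided into groups by sequence: B1 (Sox2), C (Sox4, Sox11), D (Sox5, Sox13), E (Sox8, Sox9), and F (Sox7, Sox17, Sox18). In the uterus, Sox17 lies in the epithelium, where it is needed for expression of the signal Indian hedgehog and for gland formation, and Sox9 marks the glands. Endothelial cells use the F group in vessel and lymphatic development.

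The study compared uterine transcript responses to several estrogenic compounds, and these arrays hold those to estradiol (E2) and to the weak estrogen estriol (E3). Estriol is estradiol with an additional hydroxyl group. Adult mice of at least 10 weeks were ovariectomized, which removes the ovarian source of estrogen, and were rested for 10 to 14 days. They then received 100 μL saline, or 250 ng of E2 or E3 in saline, by intraperitoneal injection. Uteri were collected 2 or 24 hr later. There were 3 arrays in each of 5 groups: saline at 24 hr, E2 at 2 hr, E3 at 2 hr, E2 at 24 hr, and E3 at 24 hr. The animals of all groups carried wild-type (WT) estrogen receptor α, by the labels for E2 at 2 hr and by the study's methods for the rest. The labels give the strain C57bl6/Jx129 for the E2 2 hr arrays and C57bl6/J for the other groups. The E2 2 hr arrays were also read on another scanner and another day. Treatment, strain, and scanning of that group therefore cannot be told apart. Saline replicate 3 shared a slide with the E3 2 hr arrays. All other slides held a single group, so slide and treatment cannot be told apart there either. No saline array at 2 hr was analysed here, so the 24-hr saline arrays served both times, and E2 and E3 share them. The labels state that each uterus was homogenized singly, whereas the methods describe pooled tissue. If the tissue was pooled, the p-values measure technical spread only.

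Each array gave 1 Cy3 intensity per probe, here the log2 intensity relative to the 75th percentile of its own array, called the level. A level of 0 is that percentile, and levels of different probes are not compared. The 75th percentile lay between 2988.7 and 4411.9 intensity units. From 77.82% to 81.75% of the probes of an array were well above background, with the dimmest of them at a level of -8.29 to -7.77. Arrays of 1 group correlated at 0.985 to 0.995 over all probes. A probe was called when the limma p-value was under 0.001 and the change at least 2-fold, and adjusted p-values (Benjamini-Hochberg over 34766 probes) are given beside it. Uterine epithelium, stroma, smooth muscle, and endothelium markers were all detected in every group. Liver transcripts (9 markers) averaged -1.05 on the saline arrays, -8.47 at 2 hr after E2, -2.96 at 2 hr after E3, and -5.62 and -5.21 at 24 hr. Exocrine pancreas transcripts (10 markers) averaged 6.05 on E3 2 hr replicate 2 and 4.75 on E2 24 hr replicate 2, -0.08 on E3 2 hr replicate 3, and -1.22 on E2 24 hr replicate 3. On the other 11 arrays they averaged between -6.95 and -4.97. The part of this other tissue in the Sox levels was not tested. Counts of called Sox probes without the first 2 of these arrays, and without all 4, are given beside the results. The latter leaves 1 array in each of those groups, whose spread is taken from the other groups.

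The probes of a gene lie at different positions, and some of them disagreed. All probes are 60 bases long, and positions are those of mouse build mm7, as the scanner annotation gives them. The strand of the gene was known for 6 of the genes from RefSeq promoter entries (GRCm38.p6), and all 14 of their probes read in that strand. Sequences are shown for some probes of Sox11, Sox9, Sox4, Sox8, and Sox17. The first pair is the brightest Sox11 probe (A_52_P608516, chr12:25177775-25177834, minus strand) beside the Sox9 probe A_51_P451606, with which it shares its longest run of bases among the member probes. Capitals mark that run, 10 bases.
Sox11 A_52_P608516: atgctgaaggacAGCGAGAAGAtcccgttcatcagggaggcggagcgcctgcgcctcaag
Sox9 A_51_P451606: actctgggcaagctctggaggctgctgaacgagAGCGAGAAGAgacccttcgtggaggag
Both stretches lie in the HMG box, the part most alike between Sox genes. The Sox9 probe spans 853 bases of the genome (chr11:112892041-112892893, plus strand) for 60 bases of probe, so it crosses an exon junction. The Sox4 probe (A_51_P105178, chr13:28317744-28317803, minus strand) follows.
Sox4 A_51_P105178: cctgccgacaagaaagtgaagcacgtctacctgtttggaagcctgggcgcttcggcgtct
The 2 Sox8 probes differ in composition. A_52_P269667 (chr17:23751840-23751899, minus strand) has 7 T and 32 G or C bases among its 60. A_52_P269672 (chr17:23749058-23749117, minus strand) has 32 T and 17 G or C bases, and its last 30 bases are given.
Sox8 A_52_P269667: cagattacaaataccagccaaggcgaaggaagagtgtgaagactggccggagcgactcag
Sox8 A_52_P269672: ctttttaatttttctacttttcctaccttt
Of the 4 Sox17 probes, 3 are listed in descending coordinates. A_52_P1180325 (chr1:4494263-4494322) is listed in ascending coordinates, on the opposite strand to the others. Its last 30 bases stand beside A_51_P273667 (chr1:4487401-4487460, minus strand). No stretch of these is marked.
Sox17 A_51_P273667: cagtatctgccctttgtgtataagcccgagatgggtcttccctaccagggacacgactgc
Sox17 A_52_P1180325: gtttaaatcccacggctatcttaatgcttt

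At 2 hr, Sox probes were called in both directions. After E2, 14 of 23 probes were called (21.2% of all probes were), 10 higher and 4 lower, in 6 of 9 genes. Over all probes, 10.6% were called higher and 10.7% lower. After E3, 15 were called (13.8% of all probes), 7 higher and 8 lower, also in 6 genes, where 4.68% of all probes were called higher and 9.11% lower. At 24 hr the count was 4 after E2 (18.1% of all probes), all lower, in Sox4, Sox5, and Sox11, where 11.1% of all probes were called lower. After E3 at 24 hr, limma called 0 probes (3.81% of all probes). Of the 23, 5 had an unadjusted p under 0.05 there, against 44.4% of all probes. Of these calls, 5 of the 10 higher after E2 and 4 of the 7 higher after E3 were Sox11 probes not well above background on any saline array, which could be tested only through the treated groups where they were high. Conversely, Sox5 A_52_P634176, 1 of the lower calls at 2 hr after E3 and at 24 hr after E2, could be tested only through saline. Over the 17 probes that 2 or more arrays of the treated group and of saline detected over background, 9 were called at 2 hr after E2 (5 higher, 4 lower), 10 after E3 (3 higher, 7 lower), and 3 and 0 at 24 hr, against 20.2%, 13%, 17.4%, and 3.34% of all such probes. The arrays of the treated group did not overlap saline for 19 of 23 probes at 2 hr after E2 and for 18 after E3, against 67.2% and 58% of all probes. At 24 hr they did not for 17 after E2 and 7 after E3, against 68.8% and 51.4% of all probes. Several probes of 1 gene are not independent, so the counts by the brightest probe of each gene were also taken. By these, Sox9 was higher and Sox4 lower at 2 hr after E2, and with Sox11 3 of 9 genes were called, against 21% of all genes. At 2 hr after E3, Sox9 was higher and Sox4, Sox5, Sox13, and Sox17 were lower, and with Sox11 6 of 9 genes were called, against 13.9%. Sox11 had lower levels on its brightest probe only, and its other 5 probes had higher ones. Without the 2 arrays rich in pancreas transcripts, 14, 13, 3, and 0 probes were called in these 4 comparisons, and 14, 11, 3, and 0 without all 4 arrays. With background corrected by normexp in place of the scanner's own correction, the counts were 6, 6, 2, and 0. The calls that remained at 2 hr were those of Sox4, the brightest Sox11 probe, 2 Sox9 probes, and Sox17 A_52_P1180325 after both compounds and of Sox13 after E3, with Sox17 A_51_P273667 called after E2.

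**Figure D1:**
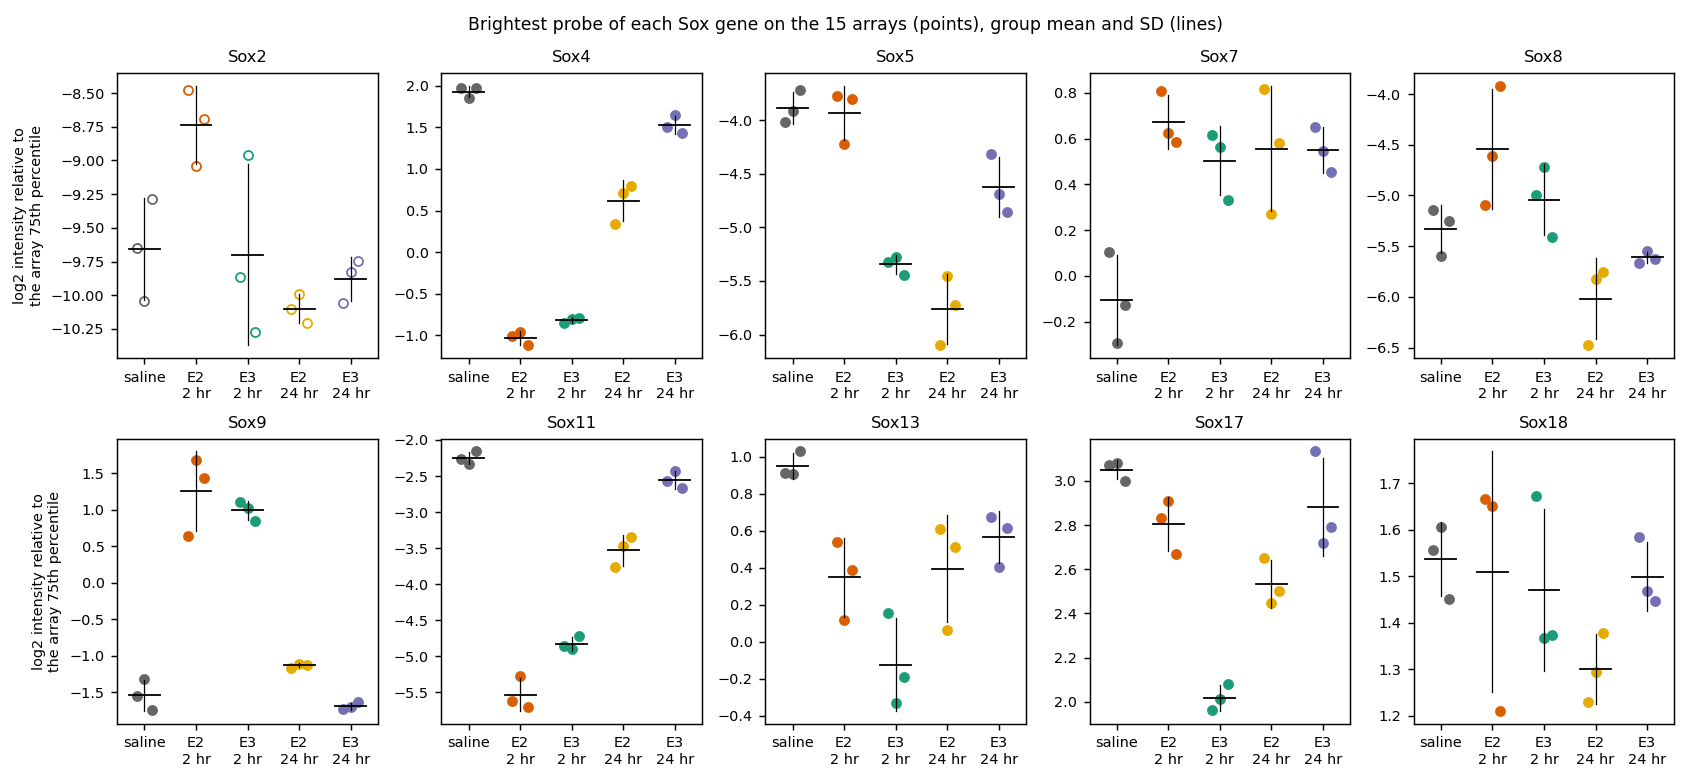
The level (log2 intensity relative to the array's 75th percentile) of the brightest probe of each Sox gene is plotted for every array, with open points where the probe was not well above background, a horizontal line at the group mean, and a vertical line of 1 SD. Sox4 and Sox11 sat lowest at 2 hr, Sox9 sat highest at 2 hr, and Sox18 stayed between 1.21 and 1.67; the axis of each panel has its own range.

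Sox4, a C-group factor of progenitor cells and of tissue growth, decreased 2 hr after both estrogens. Its levels were 1.97, 1.86, and 1.97 on the saline arrays. They were -1.01, -0.96, and -1.12 at 2 hr after E2, and -0.85, -0.80, and -0.79 at 2 hr after E3. No treated array at 2 hr came near a saline array. The change was -2.96 ± 0.11 (log2, SE, n = 3 arrays per group) after E2, a 7.8-fold decrease, with a limma adjusted p of 3.57e-09. After E3 it was -2.75 ± 0.11, a 6.71-fold decrease (adjusted p = 1.01e-08). At 24 hr the levels had partly returned, to 0.34, 0.72, and 0.80 after E2 and to 1.51, 1.65, and 1.43 after E3. Both groups still lay under every saline array. The E2 change at 24 hr was called (-1.31, adjusted p = 1.69e-06), and the E3 change of -0.41 was not (adjusted p = 0.0149). The 3 calls for Sox4 against saline held under all 30 alternative settings. Stromal markers, 8 genes with all detected in every group, averaged 4.53 on saline, 3.79 and 3.71 at 2 hr after E2 and E3, and 4.89 and 4.96 at 24 hr. The 2 hr arrays (3.56 to 4.07) did not overlap saline (4.44 to 4.58), and the part of this in the Sox values was not tested. Within the slide that held the 3 E3 2 hr arrays and saline replicate 3, the difference was -2.78.

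Sox11, the other C-group factor, is active in the embryo and in maturing neurons, and its probes did not agree. The brightest, A_52_P608516 in the HMG box, read -2.26, -2.33, and -2.16 on the saline arrays. It read -5.61, -5.28, and -5.70 at 2 hr after E2 and -4.86, -4.90, and -4.72 at 2 hr after E3. This was a decrease of 9.73-fold and of 5.96-fold (adjusted p = 4.44e-09 and 4e-08). It was still 2.43-fold lower at 24 hr after E2 (adjusted p = 5.77e-06), and the E3 change at 24 hr of -0.31 was not called (adjusted p = 0.0879).

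The other 5 Sox11 probes, which lie further toward the 3′ end of the gene, moved the other way. None of them was well above background on any saline array. On A_51_P297434 the saline arrays read -8.32, -8.47, and -9.24, and the E2 2 hr arrays -5.20, -4.88, and -5.01. The E3 2 hr arrays read -6.23, -6.83, and -6.96 on it, between the saline and the E2 arrays with no overlap. Against the floor of the array, this probe was at least 8.51-fold higher at 2 hr after E2 (adjusted p = 1.07e-06) and at least 2.72-fold higher after E3 (adjusted p = 0.000214). The bounds of the remaining 4 probes lay between 2.13-fold and 6.14-fold after E2, all called. After E3, 4 of the 5 were called, with bounds from 1.97-fold to 2.72-fold, and the calls of A_52_P114703 and A_52_P178018 were lost without the 4 arrays with the highest pancreas means (adjusted p = 0.0121 and 0.0098). A_51_P283516 was not well above background at 2 hr after E3 either. With normexp correction no call of these 5 probes remained (changes of 0.54 to 1.20 after E2). At 24 hr none of the 5 was called against saline, with fitted changes of -0.15 to 1.07 after E2 and -0.08 to 0.73 after E3.

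Over the 15 arrays, the brightest Sox11 probe correlated at 0.991 with the Sox4 probe and at -0.95 to -0.80 with the other Sox11 probes. Those correlated among themselves at 0.79 to 0.98. These values describe 5 treatment groups of 3 arrays and carry no test. What the brightest Sox11 probe binds besides Sox11 was not tested, and no single direction is given for Sox11 here.

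**Figure D2:**
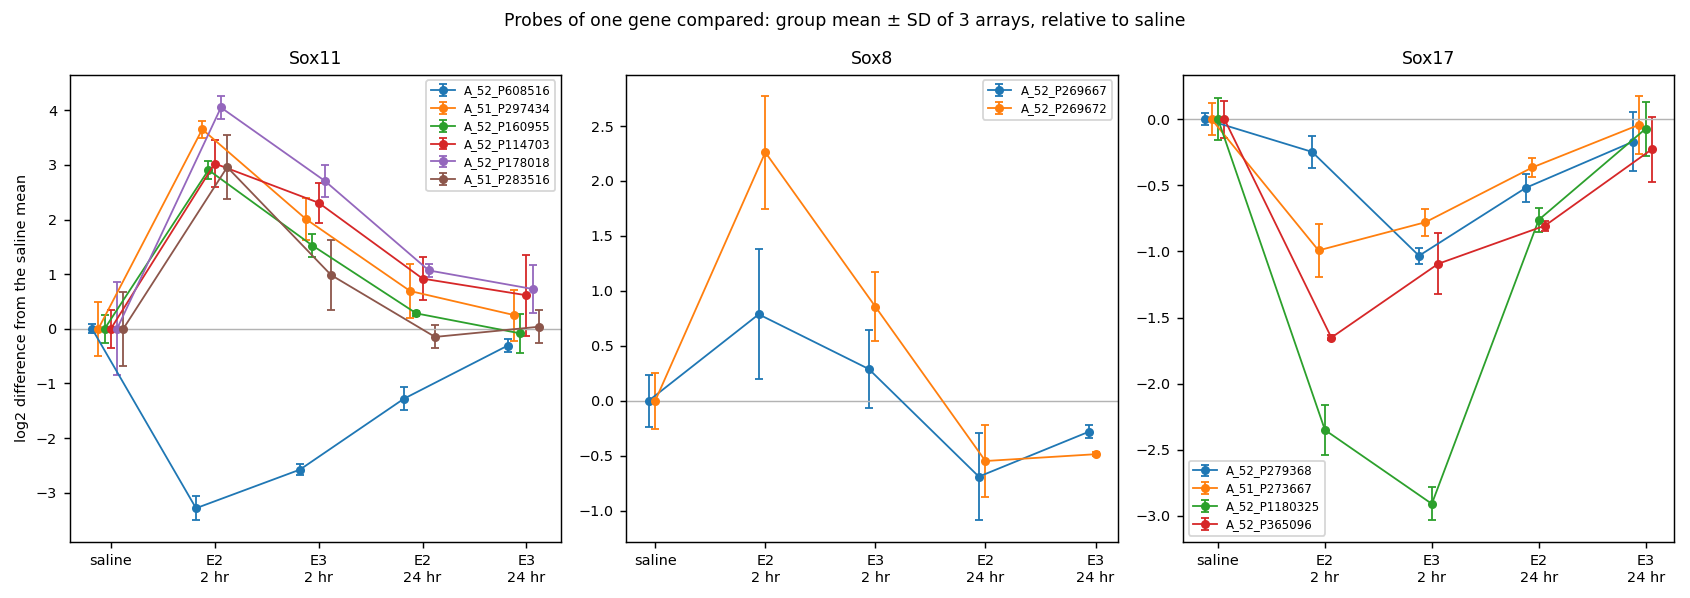
The group mean (± SD of 3 arrays) of every probe of Sox11, Sox8, and Sox17 is plotted as the log2 difference from the probe's own saline mean, with lines that only join the groups of 1 probe. Of the 6 Sox11 probes, 1 has lower and 5 have higher means than saline at 2 hr, the 2 Sox8 probes differ in size at 2 hr, and the opposite-strand Sox17 probe A_52_P1180325 has the largest decrease of its 4 at 2 hr.

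Sox9, the E-group factor of uterine glands and of cartilage, increased 2 hr after both estrogens, and no change was called at 24 hr. On the brightest probe, A_52_P577484, the saline arrays read -1.56, -1.32, and -1.74. The E2 2 hr arrays read 0.64, 1.68, and 1.43, and the E3 2 hr arrays 1.10, 1.03, and 0.84. Every treated array was above every saline array, and the 2 treated groups overlapped. The increase was 6.92-fold after E2 (2.79 ± 0.21, log2, SE, adjusted p = 3.19e-07) and 5.77-fold after E3 (2.53 ± 0.21, adjusted p = 1.33e-06). A second probe, A_52_P214630, gave 9.1-fold and 5.25-fold (adjusted p = 5.03e-08 and 8.22e-07). The junction probe A_51_P451606 gave 4.73-fold and 4.02-fold (adjusted p = 4.8e-06 and 1.97e-05). The 3 probes were thus called in 1 direction, and correlated at 0.95 to 0.99 over the arrays. With normexp correction the first 2 kept their calls and the dim junction probe did not (1.00 and 0.86).

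At 24 hr no Sox9 probe was called. On the brightest probe the E2 arrays read -1.16, -1.11, and -1.12, all just above the saline arrays, and the E3 arrays -1.73, -1.71, and -1.64, within the saline range. The changes were 0.41 (adjusted p = 0.105) and -0.15 (adjusted p = 0.609). On A_52_P214630 they were 0.37 (adjusted p = 0.0963) and -0.17 (adjusted p = 0.512). On the dim junction probe A_51_P451606 they were 0.83 (1.78-fold, adjusted p = 0.00823) and -0.02 (adjusted p = 0.953). The E2 arrays lay above all saline arrays on each of the 3 probes. Epithelial markers, a list of 12 genes with all detected in every group, averaged 1.43 on saline, 1.26 and 1.39 at 2 hr after E2 and E3, and 2.81 and 2.11 at 24 hr. In whole uterus, a change in the share of a cell type and a change in RNA per cell cannot be told apart. E3 2 hr replicate 1, with a pancreas marker mean of -6.77, read 1.10, 0.71, and -5.33 on A_52_P577484, A_52_P214630, and A_51_P451606. The highest saline arrays read -1.32, -1.52, and -7.13 on them. Without the 4 arrays with the highest pancreas means, the E3 changes at 2 hr on these probes were 2.64, 2.44, and 1.94, all called (adjusted p from 0.000851 to 0.00492).

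Sox8, the other E-group factor, acts beside Sox9 in the testis, and its 2 probes disagreed. On A_52_P269672 the saline arrays read -6.16, -6.42, and -5.92, the E2 2 hr arrays -4.42, -3.91, and -3.39, and the E3 2 hr arrays -5.17, -5.09, and -5.67. Both treated groups lay wholly above saline, with E2 above E3. The E2 increase was 4.79-fold (2.26 ± 0.25, log2, SE, adjusted p = 7.9e-06), and the E3 change of 0.86 ± 0.25 was not called (adjusted p = 0.0129). With normexp correction the E2 change was 1.43 and not called (adjusted p = 0.0991). On A_52_P269667, the brighter probe, the saline arrays read -5.14, -5.59, and -5.25. The E2 2 hr arrays read -5.10, -4.61, and -3.92, and the E3 2 hr arrays -4.99, -4.72, and -5.41. The lowest E2 array was barely above saline, and the E3 arrays overlapped it. Changes were 0.79 (adjusted p = 0.0279) after E2 and 0.29 (adjusted p = 0.426) after E3, neither called. At 24 hr both probes had lower means than saline, by changes of -0.69 and -0.55 after E2 and -0.28 and -0.49 after E3, none of them called. The 2 probes correlated at 0.895, so they differed in size more than in pattern. By the study's own real-time PCR at 2 hr, Sox8 was unchanged in WT uteri after E2.

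Sox17 was lower at 2 hr, but which probe was read decided by how much and after which estrogen. On A_52_P279368, its brightest probe, the saline arrays read 3.07, 3.08, and 3.00. The E2 2 hr arrays read 2.83, 2.91, and 2.67, and the E3 2 hr arrays 1.96, 2.01, and 2.08. The E2 arrays were just below saline and the E3 arrays were clear of both. The E3 change was a 2.05-fold decrease (-1.03 ± 0.11, log2, SE, adjusted p = 9.2e-06), and the E2 change of -0.25 ± 0.11 was not called (adjusted p = 0.0666).

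The remaining Sox17 probes had the lower values after E2 as well. On A_51_P273667, the saline arrays read 2.76, 2.64, and 2.52, the E2 2 hr arrays 1.63, 1.85, and 1.46, and the E3 2 hr arrays 1.76, 1.96, and 1.86. All treated arrays were below saline, with the E2 change (-0.99, 1.99-fold, adjusted p = 2.43e-05) and the E3 change (-0.78, adjusted p = 0.00026) both short of 2-fold. A_52_P365096 (chr1:4490742-4490801) was called after E2 (3.14-fold lower, adjusted p = 6.13e-07) and after E3 (2.13-fold lower, adjusted p = 2.88e-05). Its E3 call was lost without E3 2 hr replicate 3 (-0.98) and under quantile normalization (-0.86), and both of its calls were lost with normexp correction (-0.88 and -0.65). That of A_52_P279368 after E3 fell just short of 2-fold there (-0.99).

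The opposite-strand probe A_52_P1180325 changed most. It read -3.13, -3.38, and -3.09 on saline, -5.48, -5.76, and -5.41 at 2 hr after E2, and -6.23, -5.98, and -6.12 at 2 hr after E3. The 3 groups did not overlap, and the decrease was 5.1-fold after E2 (adjusted p = 3.69e-08) and 7.51-fold after E3 (adjusted p = 1.86e-08). No gene strand was held for Sox17, but this probe reads the strand opposite to the other 3, so its level is not taken as that of the same transcript. At 24 hr no Sox17 probe was called. The changes were -0.52, -0.36, -0.80, and -0.76 after E2 (adjusted p from 0.000236 to 0.0244) and -0.23 to -0.04 after E3. The E2 24 hr arrays did not overlap saline on any of the 4 probes. The epithelial marker mean there, 2.81, was above that of saline, 1.43. The endothelial marker mean there, 0.57, was below that of saline, 0.96. The part of either cell type in the Sox17 values was not tested.

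Sox7 and Sox18, the other members of the F group, gave 1 call against saline between them. The Sox7 probe A_51_P476018 had higher values after every treatment, with changes of 0.78, 0.61, 0.66, and 0.66 at 2 hr after E2 and E3 and 24 hr after E2 and E3. All were short of 2-fold (adjusted p from 0.000484 to 0.00463), and no treated array overlapped saline. The second Sox7 probe, A_52_P644005, read -1.57, -2.06, and -1.76 on saline and -0.87, -0.79, and -0.58 at 2 hr after E2. That 2.08-fold increase was called (adjusted p = 1.73e-05), but not without saline replicate 2 (0.92) or E2 2 hr replicate 3 (0.97). Its other changes lay between 0.10 and 0.26, with overlapping arrays. Sox18 stayed between 1.21 and 1.67 on all 15 arrays, and its 4 changes lay between -0.24 and -0.03 (adjusted p from 0.118 to 0.861). The 95% interval of its E2 2 hr change ran from -0.30 to 0.24. Endothelial markers (10 genes, all detected) averaged 0.96 on saline, 0.85 and 0.83 at 2 hr, and 0.57 and 0.86 at 24 hr after E2 and E3. Their part in these values was not tested.

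Of the D-group factors, which lack an activation domain of their own and bind beside Sox9 in cartilage, Sox5 differed between the compounds on its brightest probe. The brightest Sox5 probe, A_52_P352356, read -4.02, -3.92, and -3.72 on saline and -3.78, -4.22, and -3.81 at 2 hr after E2. After E3 at 2 hr it read -5.32, -5.27, and -5.45. The E2 arrays overlapped saline (change -0.05, 95% interval -0.45 to 0.35), and the E3 arrays were 2.75-fold lower (-1.46 ± 0.18, log2, SE, adjusted p = 3.57e-05). At 24 hr the order of the compounds turned. The E2 arrays read -6.10, -5.45, and -5.73, 3.67-fold below saline (adjusted p = 4.4e-06). The E3 arrays read -4.32, -4.69, and -4.86, a change of -0.74 that was not called (adjusted p = 0.00905). With normexp correction the calls after E3 at 2 hr (-0.98) and after E2 at 24 hr (-1.23) were both lost.

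The dim probe A_52_P634176 was well above background on the 3 saline arrays and on 1 treated array. It was called at 2 hr after E3 and at 24 hr after E2, but bounds there were only 1.24-fold and 1.41-fold, and the calls were lost in 7 and in 16 of 29 alternative settings. The third Sox5 probe, A_51_P500318, did not follow: its changes lay between -0.27 and 0.27 (adjusted p from 0.159 to 0.969). Sox13 read 0.91, 0.91, and 1.03 on saline and 0.15, -0.33, and -0.19 at 2 hr after E3, a 2.1-fold decrease (adjusted p = 0.000168). Without E3 2 hr replicate 2, which carried pancreas transcripts, it was -0.97 and not called, and without the 4 arrays with the highest pancreas means -0.80. Its other 3 changes were -0.60, -0.55, and -0.38, with all treated arrays under all saline arrays and none called.

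**Figure D3:**
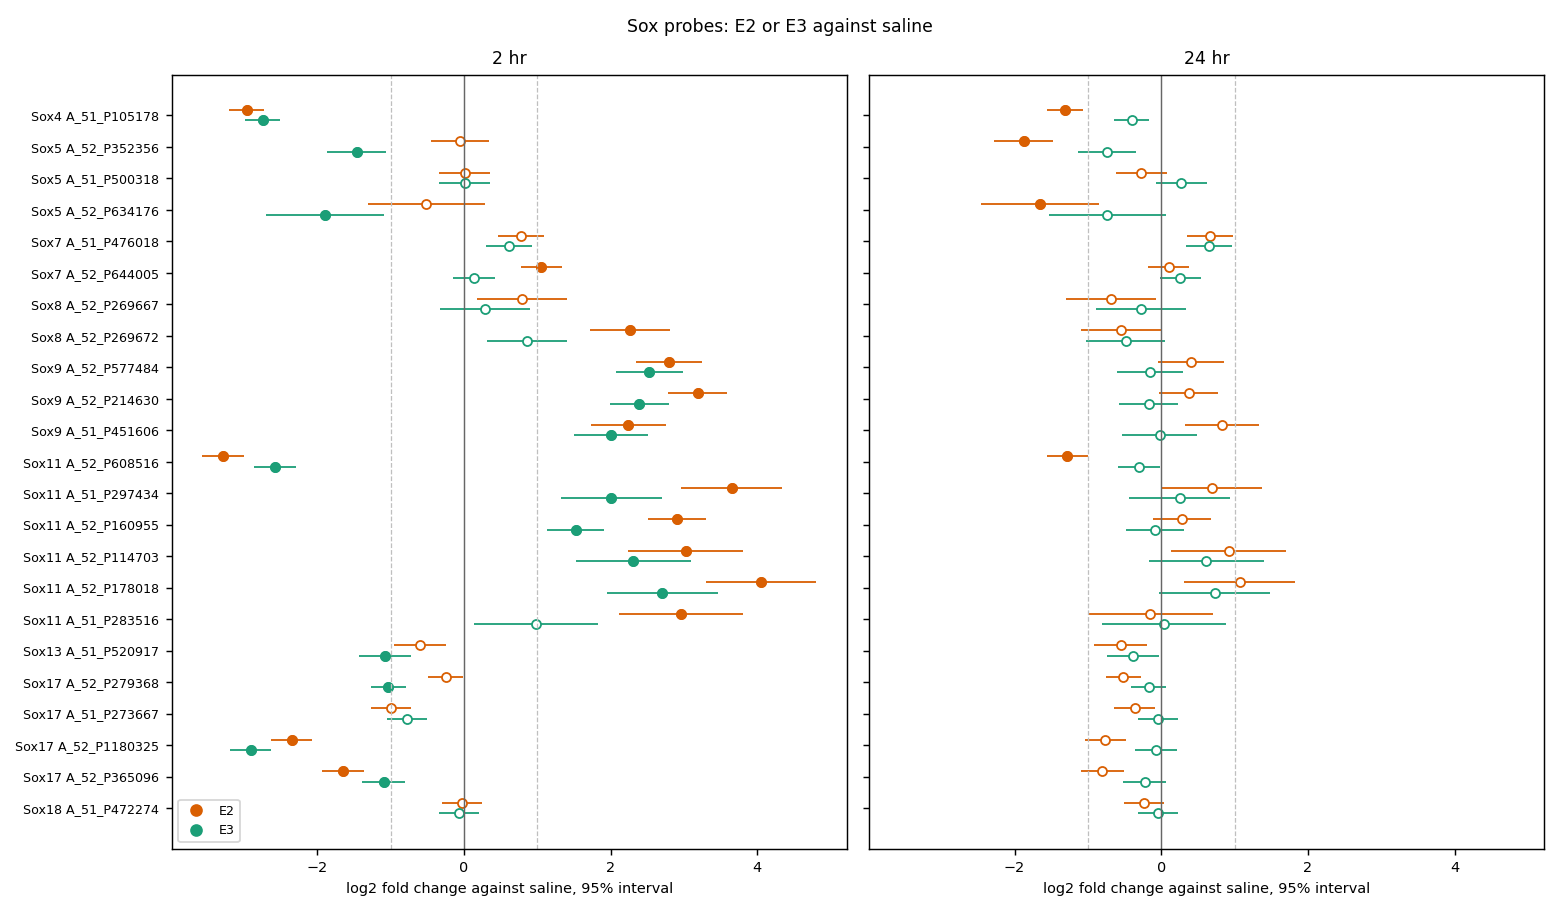
The log2 fold change of each of the 23 tested Sox probes against saline is plotted with its 95% interval, at 2 hr on the left and 24 hr on the right, E2 in orange and E3 in green, filled where p was under 0.001 and the change at least 2-fold, with dashed lines at 2-fold. Filled points are frequent at 2 hr on both sides of 0, while at 24 hr they are 4 E2 points on the lower side and no E3 point.

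E3 and E2 were compared directly at the same dose and time for the 23 probes at both times, with p-values adjusted over all 34766 probes. At 2 hr, 5 probes were called (7.37% of all probes), all lower after E3, in Sox5, Sox8, and Sox11, where 5.83% of all probes were lower. Arrays of the compounds did not overlap for 14 probes, against 50.8% of all. Sox5 A_52_P352356 differed by -1.41 (95% interval -1.81 to -1.01, adjusted p = 9.58e-05), and Sox8 A_52_P269672 by -1.40 (-1.95 to -0.86, adjusted p = 0.000836). The 3 Sox11 probes were A_52_P160955, A_51_P297434, and A_51_P283516. The first of them differed by -1.38 and the second by -1.65 (adjusted p from 9.88e-05 to 0.00159 over the 3), all on probes at background on saline. The last was not well above background on any E3 2 hr array and could be tested only through the E2 arrays, with a fold of at least 1.87, a bound under 2-fold. Over the 21 probes that 2 or more arrays of each compound detected over background, 4 were called, against 6.39% of all such probes. Sox4 differed by 0.22 (-0.03 to 0.46, adjusted p = 0.135) and the brightest Sox9 probe by -0.26 (-0.71 to 0.19, adjusted p = 0.33), so a 2-fold difference lay outside both intervals. The Sox9 probe A_52_P214630 differed by -0.79 (-1.19 to -0.39, adjusted p = 0.00439), short of 2-fold. The Sox17 probes did not agree on the compound. The difference was -0.79 on A_52_P279368 and 0.56 on A_52_P365096 (adjusted p = 0.000156 and 0.00524), neither of them 2-fold. With normexp correction none of the 5 calls remained, with Sox5 at -0.95 and Sox8 at -1.03. Without the 4 arrays with the highest pancreas means, the 1 call was that of Sox5 A_52_P352356. These 2 hr differences cannot be told apart from the strain and scanner of the E2 arrays.

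At 24 hr both groups shared strain and scanner but lay on different slides, so compound and slide cannot be told apart. Sox5 A_52_P352356 was the 1 probe called (4.85% of all probes were called, and 2.77% of all probes were called higher after E3). Arrays of the compounds did not overlap for 13 probes, against 51.2% of all. It was 2.2-fold higher after E3 (1.14, 95% interval 0.74 to 1.54, adjusted p = 0.000571). That call was lost without E2 24 hr replicate 1 (0.97) or E3 24 hr replicate 1 (0.98), when the fit held those 2 groups alone, and with normexp correction (1.38, adjusted p = 0.0546). Sox4 (0.91, 0.67 to 1.15, adjusted p = 9.93e-05) and the brightest Sox11 probe (0.97, 0.69 to 1.26, adjusted p = 0.000172) were higher after E3 on all arrays but short of 2-fold. With normexp correction the brightest Sox11 probe was called (1.18, limma adjusted p = 0.00272), where the median over all probes was 0.44. Without the 2 arrays rich in pancreas transcripts the count was 2, with this Sox11 probe at 1.00. Without all 4 it was 3, with this probe at 1.21 and Sox4 at 1.19. Sox9 differed by -0.56 (-1.02 to -0.11, adjusted p = 0.0512) on its brightest probe, by -0.54 on A_52_P214630 (adjusted p = 0.0358), and by -0.85 on A_51_P451606 (adjusted p = 0.0132), with E3 arrays below all E2 arrays on each. Sox18 differed by 0.20 (-0.07 to 0.47, adjusted p = 0.239).

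The E3 minus E2 difference at 24 hr was also tested against that at 2 hr. The change in the difference was called for 5 probes (15.5% of all probes), all positive (11.1% of all probes). It was 2.55 for Sox5 A_52_P352356 (95% interval 1.99 to 3.11, adjusted p = 2.11e-05), 1.13 for Sox17 A_52_P279368 (0.80 to 1.47, adjusted p = 0.000131), and 1.25 for the opposite-strand Sox17 probe (adjusted p = 0.000217). With normexp correction the Sox5 change was 2.32 and not called (adjusted p = 0.0234), and that of A_52_P279368 kept its call. The change was 1.07 for Sox7 A_52_P644005 (adjusted p = 0.00054). The fifth probe was Sox5 A_52_P634176, not well above background on any array of 3 of these 4 groups, so no size is given for it here. Without the 4 arrays with the highest pancreas means, 2 probes were called, Sox5 A_52_P352356 and Sox4 (1.01, adjusted p = 0.00786). For Sox9 it was -0.30 (-0.94 to 0.34, adjusted p = 0.426) on the brightest probe.

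The 2 times were also compared within each compound. The E2 arrays of the 2 times differ in strain, scanner, and scan day, and these cannot be told apart from time. After E2, 14 probes were called between the times (31.1% of all probes), 3 higher and 11 lower, against 13.9% and 17.2% of all probes. After E3, 11 were called (16.1% of all probes), 3 higher and 8 lower, against 9.65% and 6.47%. Of the lower calls, 4 after E2 and 4 after E3 were Sox11 probes with at most 1 array well above background at 24 hr, which could be tested only through the 2 hr groups where they were high. Over the probes that 2 or more arrays detected at each time, 10 of 18 were called after E2 (3 higher, 7 lower) and 7 of 17 after E3 (3 higher, 4 lower), against 30.3% and 15.6% of all such probes. With normexp correction 4 and 5 calls remained, and 6 of the 8 lower values after E3 changed sign, among them Sox11 A_52_P114703 (0.88) and Sox8 A_52_P269672 (0.51). The calls that remained were those of Sox4, the brightest Sox11 probe, and Sox9 A_52_P577484 and A_52_P214630 after both compounds, and of the opposite-strand Sox17 probe after E3. The 3 higher at 24 hr after either compound were Sox4 (1.65 after E2 and 2.34 after E3), the brightest Sox11 probe (2.00 and 2.27), and the opposite-strand Sox17 probe (1.59 and 2.84). Sox9 on its brightest probe was lower at 24 hr by a change of -2.38 after E2 and -2.68 after E3. Sox5 A_52_P352356 lay further below its saline level at 24 than at 2 hr after E2, by a change of -1.82.

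**Figure D4:**
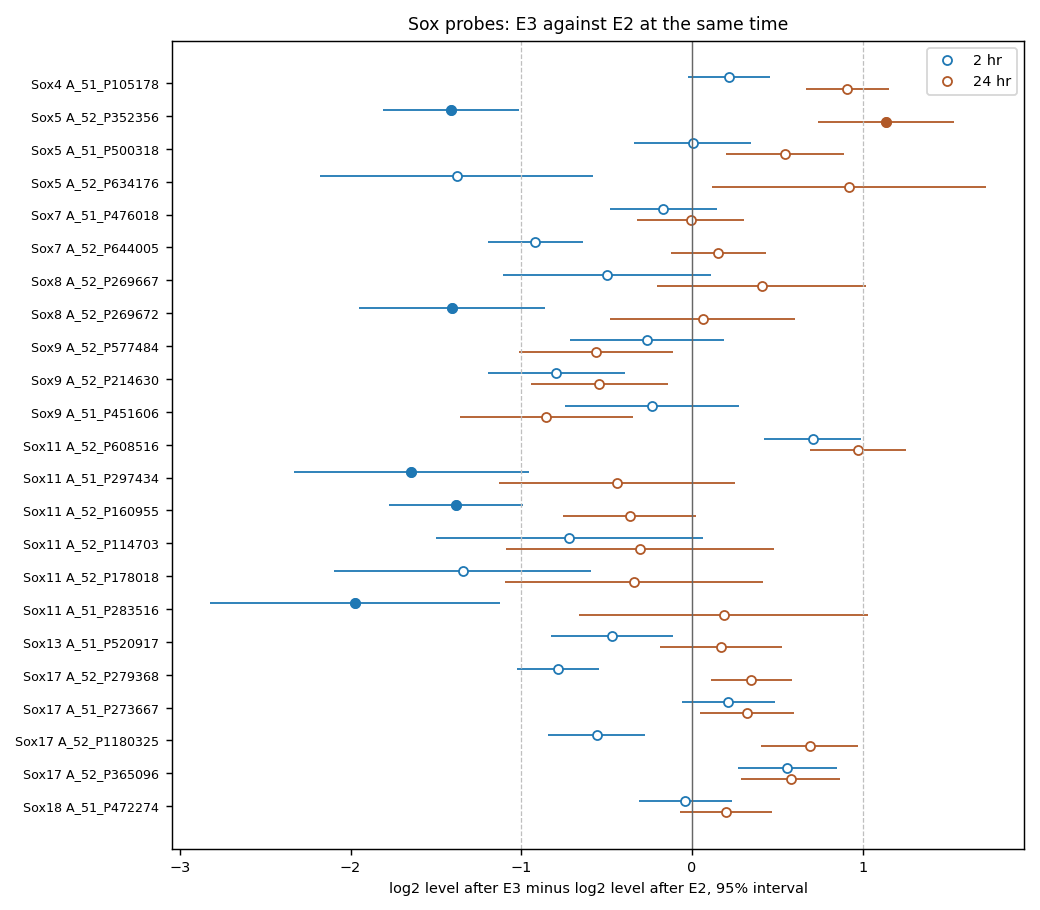
The log2 level after E3 minus that after E2 is plotted for each of the 23 Sox probes with its 95% interval, at 2 hr in blue and at 24 hr in brown, filled where p was under 0.001 and the difference at least 2-fold, with dashed lines at 2-fold. At 2 hr the 5 filled points lie on the E2-higher side, and at 24 hr the 1 filled point, Sox5, lies on the E3-higher side.

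The genes whose levels were most like those of Sox9 over the 15 arrays were D230037D09Rik, Btbd10, and A930013K19Rik, with Pearson r of 0.992, 0.992, and 0.991. A930013K19Rik averaged -1.26 on saline, 3.48 and 3.17 at 2 hr after E2 and E3, and -0.75 and -1.42 at 24 hr. For the brightest Sox17 probe they were Pou2f1 (0.936), Adamts7 (0.933), and Ttyh1 (0.927). Adamts7, a secreted protease, averaged -1.77 on saline, -1.93 and -3.31 at 2 hr after E2 and E3, and -2.54 and -1.90 at 24 hr. With 5 groups behind 15 arrays, such correlations are a description.

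Genes known to work with these factors were counted by their brightest probe. Of the epithelial Indian hedgehog list, 15 of 17 genes could be tested. There, 2 genes were higher and 5 lower at 2 hr after E2, and 3 were higher and 5 lower after E3, against 21% and 13.9% of all genes called. At 24 hr, 1 was higher and 6 lower after E2 and 3 were lower after E3, against 18.3% and 4.13%. The median change at 2 hr was -0.95 after E2 and -0.87 after E3, against -0.08 and -0.11 over all probes. The list holds genes of the stroma, such as Nr2f2 and Hand2. The 8 stromal markers had median changes of -0.85 and -0.65 at 2 hr after E2 and E3, with 3 and 2 of them called lower, and their part in the list's values was not tested. Ihh itself, which needs Sox17 in the epithelium, changed by 0.85 after E2, not called (adjusted p = 0.00267), and by 1.35 after E3 (adjusted p = 0.000135). At 24 hr Ihh was lower by a change of -1.93 after E2 (adjusted p = 6.79e-06) and -1.90 after E3 (adjusted p = 0.00011). Ptch1, the hedgehog receptor and a target of the pathway, was lower in all 4 comparisons, with changes of -1.21, -2.93, -2.51, and -1.69. Wnt4 had the largest increase of the list at 2 hr after each compound, at 2.70 after E2 (adjusted p = 9.87e-07) and 3.1 after E3 (adjusted p = 6.5e-07). The progesterone receptor gene Pgr rose by 2.44 and 2.12 (adjusted p = 7.96e-09 and 3.81e-08).

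Among 14 genes that partner or follow the F group in vessels, all tested, 1 rose and 1 fell at 2 hr after E2, and 1 rose and 2 fell after E3. At 24 hr, 2 fell after E2 and limma called 0 after E3, where 5 had an unadjusted p under 0.05 (44.4% of all probes). Of all genes, 21% and 13.9% were called at 2 hr and 18.3% and 4.13% at 24 hr, so the counts are no result about the list. The endothelial junction gene Cldn5 fell by 2.20 at 2 hr after E2 (adjusted p = 1.25e-07), by 1.25 after E3 (adjusted p = 1.92e-05), and by 1.56 at 24 hr after E2 (adjusted p = 2.96e-06). The Notch target Hey1 rose by 2.09 and 1.69 at 2 hr (adjusted p = 2.7e-07 and 2.71e-06). Prox1, the lymphatic regulator, fell by 1.34 at 24 hr after E2 (adjusted p = 2.53e-05). Of 12 cartilage-type targets of Sox9 and Sox5, 9 were tested. After E2, 1 was called at 2 hr, Hapln1 (-1.07, adjusted p = 0.00203), and none after E3, where limma gave 3 with an unadjusted p under 0.05 (55.1% of all probes). At 24 hr after E2, Col2a1 (1.93) and Col11a1 (1.44) were higher and Col9a2 (-1.86) and Comp (-1.58) lower. After E3 the changes of the first 3 were 1.76, 1.34, and -1.15, all called. The counts at 24 hr were 4 and 3 of 9 genes, against 18.3% and 4.13% of all genes, and those at 2 hr 1 and 0, against 21% and 13.9%.

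The TCF/LEF factors carry an HMG box of another kind and act with β-catenin. Of the 6 genes of that list, which also holds Axin2 and the β-catenin gene Ctnnb1, limma called 1 against saline. It was Lef1, which fell by 1.76 at 24 hr after E2 (adjusted p = 8.54e-07). That is 1 of 6 against 18.3% of all genes and no result about the list. At 2 hr, 2 of the 6 had an unadjusted p under 0.05 after each compound, against 65.4% of all probes after E2 and 55.1% after E3.

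RefSeq promoter entries (250 bases before to 50 after the start, GRCm38.p6) were held for 6 of the 10 genes, and were searched on both strands for 4 motifs. The palindromic estrogen response element GGTCANNNTGACC was in none of the 6 and in 0.07% of all 32851 promoters. Its half-site GGTCA, which the palindrome contains, was in those of Sox2, Sox4, and Sox8, and in 40.5% of all. The AP-1 site TGANTCA was in none of the 6 and in 7.81% of all. The GC box GGGCGG was in those of Sox2, Sox8, and Sox11, and in 35.7% of all. These are matches of letters in a short window and say nothing about binding.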

How the data were processed

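Uterine RNA of 15 samples (500 ng each) was labeled with Cy3 by the authors and hybridized to one-color Agilent Whole Mouse Genome arrays. Feature Extraction 9.5.3.1, per the file headers, subtracted background and removed spatial trends. The intensity values as deposited were linear, without scaling between arrays, and the table for the whole series repeated them exactly (largest relative difference 0). The authors' later Rosetta Resolver step was not repeated. No column was left without a sample (0 unmapped).

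Control spots were dropped (43379 spots remained), 1893 spot values marked as outliers were not used, and spots of 1 probe were averaged (744 values missing). Levels are log2 intensities from which that of the array's 75th percentile was subtracted, a scaling under which a change shared by most probes would not be seen. A probe was kept if 2 arrays or more of any 1 group detected it over background (34776 probes, 34766 of them testable). The fit was limma 3.58.1 in R 4.3.3 (lmFit and eBayes on 5 group means, 15 arrays, 10 residual and 2.06 prior degrees of freedom), with 9 comparisons, Benjamini-Hochberg adjustment, and 95% intervals. Where no array of the dimmer group detected a probe, the fold is given as "at least", computed against the higher of the array's lowest detected level and the probe's own. The fit was also tested on simulated data with known changes. Figures were drawn with matplotlib 3.10.9.

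Alternatives covered background (normexp, offset 50), scaling (quantile, a percentile over detected probes, none), probe filters (none, or a mean signal over 100), outlier spots, the deposited series table, the thresholds, blocks for replicate number and slide, the groups in the fit, the probe chosen, and each array left out. The omission of the 2 arrays richest in pancreas transcripts, or of the 4 with a marker mean over -4, was chosen after seeing the data.

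The text names each member with all its probes, called genes of the partner lists, up to the 3 with the largest change per comparison, and the 3 genes most like Sox9 and Sox17. Lists use the brightest probe of a gene. The members and lists were chosen with earlier results of these data known. Gene names and mm7 positions are those of the array annotation, and gene models of that build were not used here. The number of arrays limits the precision. A probe of another Sox gene on the array is not reported here.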

Additional observations from a re-analysis of the deposited data

Results flagged for a closer look

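The difference between E3 and E2 changed between 2 and 24 hr for 5 of the 23 Sox probes, by the test of that change itself in limma, against 15.5% of all probes. Over the 17 probes that 2 or more arrays of each of the 4 groups detected over background, 4 were called, against 15.4% of all such probes. On the log2 scale the change was 2.55 for Sox5 A_52_P352356, 2.30 for Sox5 A_52_P634176, 1.07 for Sox7 A_52_P644005, 1.13 for Sox17 A_52_P279368, and 1.25 for Sox17 A_52_P1180325. The 2 hr side of each contrast holds the E2 arrays of another strain and scanner, which cannot be told apart from the compound. The Sox5 probe A_52_P634176 was well above background on 1 array of E3 at 24 hr and on none of the other 3 groups, so its value is no measured size. Its call was lost in 17 of 29 settings, among them quantile normalization (1.93), no scaling (2.34), and normexp correction (1.42, limma adjusted p = 0.301). With normexp correction the calls of Sox5 A_52_P352356 (2.32, adjusted p = 0.0234) and Sox17 A_52_P1180325 (1.11, adjusted p = 0.0946) were lost as well. Of the 5 calls, that of Sox5 A_52_P352356 was the 1 that remained without the 4 arrays with the highest pancreas marker means. The Sox7 value was 0.99 and no longer called without E2 2 hr replicate 3.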

How the results depend on the processing

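The 23 probes in 9 comparisons gave 207 results, 69 of them called, and each was recomputed under 30 settings. Of the 138 not called, 33 became called in at least 1 setting, the looser thresholds included. Of the 69 called, 21 kept their call in every setting that could test them, and 46 lost it in at least 1. A change of sign was seen for 6 of the 69, some of them among the 46. All 6 were E3 at 24 against 2 hr with normexp background correction: Sox11 A_51_P297434 (0.73), A_52_P114703 (0.88), A_52_P160955 (0.87), and A_52_P178018 (0.88), Sox9 A_51_P451606 (0.27), and Sox8 A_52_P269672 (0.51). That correction moved the median of all probes in this comparison from 0.12 to 0.50, for E3 at 24 hr against saline from -0.01 to 0.32, for E3 against E2 at 24 hr from 0.06 to 0.44, and for the change of the E3 minus E2 difference from 0.11 to 0.48. It gave 6 called Sox probes for E2 and 6 for E3 at 2 hr, 2 for E2 at 24 hr, 0 for E3 against E2 at 2 hr, 4 and 5 between the times after E2 and E3, and 2 for the change of the E3 minus E2 difference. The cause was not tested. Outlier spots kept, the deposited table, no filter, and the slide as a random block (correlation -0.01) each left all 207 calls as they were. The slide block could not separate slide from group, since only the slide of saline replicate 3 and the E3 2 hr arrays mixed groups.

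A mean signal over 100 gave 3 called probes for E3 against E2 at 2 hr, since fewer probes were tested. An adjusted p under 0.05 with 2-fold gave 9 for the change of the difference. Without a minimum change there were 8 for E2 and 1 for E3 at 24 hr, and 9 and 5 for E3 against E2 at 2 and 24 hr. With only the groups compared, E3 against E2 at 24 hr had 0, and without the 2 arrays rich in pancreas transcripts it had 2. Without the 4 arrays with the highest pancreas means, E3 against E2 had 1 at 2 hr and 3 at 24 hr, and the change of the difference had 2. Leaving out each array in turn gave 13 to 15 for E2 and for E3 at 2 hr, 3 to 4 and 0 to 1 at 24 hr, 3 to 6 and 0 to 2 for E3 against E2 at 2 and 24 hr, 13 to 15 and 9 to 11 between the times, and 3 to 6 for the change of the difference. The count for E3 at 24 hr was 1 without saline replicate 1. The count for E3 against E2 at 2 hr was 3 without E2 2 hr replicate 2, and that for the change of the difference was 3 without E2 2 hr replicate 3. For E3 against E2 at 24 hr it was 0 without E2 or E3 replicate 1, and 2 without E2 replicate 2 or 3 or E3 replicate 3.

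With another probe in place of the brightest, Sox5 turned to 0.011 at 2 hr after E3. Sox11 turned to 3.65, 2.91, 3.02, 4.05, and 2.96 at 2 hr after E2, to 2.00, 1.52, 2.31, 2.71, and 0.98 at 2 hr after E3, and to 0.69, 0.28, 0.92, and 1.07 at 24 hr after E2. These are fitted values against saline arrays on which the probes were not well above background, and the bounds at 2 hr after E2 were 3.09, 2.62, 1.95, 2.32, and 1.09.

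The replicate numbers showed no clear pairing of the samples. Of same-numbered pairs of arrays, 9 of 30 deviated together with a correlation over 0.1 (median 0.04). Of other-numbered pairs, 17 of 60 did (median 0.02), and 5 of 15 arrays correlated best with their own number. With the replicate number as a block, the counts were 14, 15, 4, and 0 against saline, 5 and 1 between compounds, 14 and 10 between times, and 5 for the change of the difference. The 1 call lost was Sox11 A_52_P114703 (fitted value -1.69, adjusted p = 0.00433 in limma) for E3 at 24 against 2 hr. No E3 24 hr array had this probe well above background, and its decrease was at least 1.97-fold. Probes near background, such as 5 of the Sox11 probes and Sox5 A_52_P634176, are limited by their signal.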
